A study of Mus musculus with 8 samples.

Results

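miR-219 and miR-338 are microRNAs (miRNAs) of the oligodendrocyte, the cell that wraps central axons in myelin. Their mature products were followed here in hippocampal small RNA of BTBR and B6 animals. The members were chosen by name: mmu-miR-219a-5p, mmu-miR-219a-2-3p, mmu-miR-338-3p and mmu-miR-338-5p, written below without the species prefix. Of these 4, 3 had a row among the 422 miRNAs of the count table, and miR-338-5p was not analysed here. The hippocampus was punched from brain slices of adult male mice aged 12 weeks, and each library came from 1 mouse. The libraries were 4 from B6 mice (C57BL/6J, labelled WT) and 4 from BTBR mice (BTBR T+ Itpr3tf/J). Both are inbred strains that differ across the genome, so a difference between them cannot be assigned to any one allele.

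A miRNA is cut from a hairpin transcript, and bases 2 to 8 of the mature strand, the seed, pair with messenger RNAs that are then repressed. miR-219 and miR-338 rise when oligodendrocyte precursors leave the cell cycle and differentiate. They repress genes that hold the precursor state, such as Pdgfra, which encodes the PDGF receptor of precursors, and the transcription factors Sox6, Foxj3 and Zbtb18. BTBR mice lack the corpus callosum, the main myelinated tract between the hemispheres. The comparison asks whether these oligodendrocyte miRNAs differ in the hippocampus of such mice. In whole tissue, fewer oligodendrocytes and less of the miRNA per cell cannot be told apart.

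The mature sequences are shown because the seed, in capitals, sets which messengers each product can bind. They are written 5′ to 3′ as RefSeq gives them for GRCm38.p6, and miR-219a-2-3p is named only.
miR-219a-5p: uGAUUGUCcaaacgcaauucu
miR-338-3p: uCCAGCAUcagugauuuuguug
miR-338-5p: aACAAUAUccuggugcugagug

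The 3 sequences have different seeds. Mature sequences were found for 367 of the 422 miRNAs in the table, and none of these other miRNAs shared the seed of miR-219a-5p or miR-338-3p. The same miR-219a-5p is cut from a pair of hairpins, both on the minus strand of GRCm38. Mir219a-1 lies at chr17:34024983-34025092, over an exon of the long noncoding RNA Gm26940 and 303 bp from Ring1. Mir219a-2 lies at chr2:29845631-29845727, 629 bp from Urm1 and outside protein-coding genes. Reads of miR-219a-5p cannot be assigned to either hairpin, whereas miR-219a-2-3p comes from Mir219a-2 alone. Mir338, at chr11:120014765-120014862 on the minus strand, sits in an intron of Aatk, which encodes a kinase and is transcribed in the same direction. Each of the 3 hairpins has an annotated miRNA on the opposite strand (Mir219c, Mir219b and Mir3065). A list of 8 further products of these hairpins, of those antisense to them and of miR-657 was looked up, and 0 had a row.

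Sites for the seeds were looked for in the 3′UTRs of 8 messengers reported as targets of miR-219 or miR-338 (Pdgfra, Sox6, Foxj3, Zbtb18, Lingo1, Etv5, Elovl7 and Hes5), taking the GENCODE transcript with the longest 3′UTR on its sense strand. The letters searched were GACAATC for miR-219a-5p and ATGCTGG for miR-338-3p. GACAATC occurred in 6 of the 8 and in 4.78% of the 3′UTRs of 20966 genes. ATGCTGG occurred in 3 of the 8 and in 13.0% of all. The 8 were picked as reported targets of either miRNA, so their share with a match is not a test. Longer 3′UTRs hold more matches, and among 3′UTRs of about the length of each of the 8, from 2.09% to 16.4% held GACAATC and from 7.42% to 41.3% held ATGCTGG. The following sites, with the match in capitals, show what miR-219a-5p and miR-338-3p could pair with in messengers of the precursor state.
Pdgfra for miR-219a-5p: atttttatgatGACAATCaaagc
Sox6 for miR-219a-5p: gaatggagaatGACAATCacaga
Foxj3 for miR-219a-5p: ttcctttcgaaGACAATCagaga
Zbtb18 for miR-219a-5p: aatctagaggaGACAATCaatgt
Sox6 for miR-338-3p: aactcactgacATGCTGGactga
Zbtb18 for miR-338-3p: aaatttctgaaATGCTGGattat

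In each of these 6 sites the match is followed by an A, which makes it an 8-base site. The match in Pdgfra is at chr5:75197713-75197719 on the plus strand, 2613 nt after the stop codon. Among 2344 genes with 3′UTRs of about that length, 9.73% held GACAATC. Sox6 had 2 matches for miR-219a-5p and 3 for miR-338-3p, and those shown are at chr7:115474015-115474021 and chr7:115471792-115471798 on the minus strand. Of 663 3′UTRs as long as that of Sox6, 16.4% held GACAATC and 41.3% held ATGCTGG. The match shown in Foxj3 is at chr4:119626521-119626527. Those in Zbtb18 are at chr1:177450506-177450512 for miR-219a-5p and chr1:177449158-177449164 for miR-338-3p, all on the plus strand. A match of letters is not evidence of binding, and the messengers were not measured here.

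The table gives whole-number read counts per miRNA, and the libraries held between 2247482 and 7904990 counts. The lowest was BTBR replicate 2 and the highest BTBR replicate 4. Counts were normalized by TMM, which scales libraries so that most miRNAs agree, and are given as CPM, read counts on a common library size. For the strain comparison, the quasi-likelihood test of edgeR was fitted to all 422 miRNAs. A miRNA was called when its Benjamini-Hochberg adjusted p was under 0.1, the study's cutoff.

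None of the 3 measured members passed the test between strains, where 1.66% of all miRNAs did (7 of 422; 5 or 1.18% higher and 2 or 0.474% lower in BTBR). At an unadjusted p under 0.05 the members still counted 0, and all miRNAs 46 (10.9%). The number of members called was also 0 with edgeR's exact test, DESeq2 and limma-voom, which called 3.79%, 5.65% and 1.42% of the miRNAs they tested. No member separated the strains mouse by mouse, against 6.64% of all miRNAs. With only 3 members, a count of 0 is near each of these shares. The miR-219a-2-3p and miR-338-3p estimates lay below 0 and that of miR-219a-5p above 0, with a median of −0.34 on the log2 scale over the 3 members and 0.02 over all miRNAs.

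**Figure D1:**
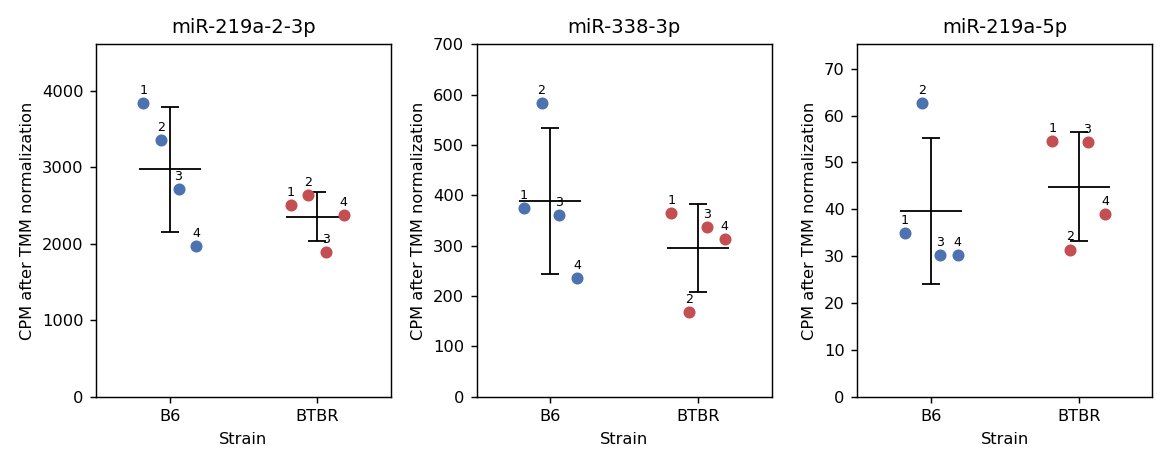
Level of the 3 measured members, in CPM after TMM normalization, in 4 B6 and 4 BTBR libraries, numbered by replicate. Horizontal bars and whiskers are the mean ± SD, and in each panel the strains overlap.

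miR-219a-2-3p was the most abundant of the 3, at rank 40 of 422 by mean level. Levels of the members are set side by side without a correction for length, and small RNA libraries capture sequences unequally. It had 3846, 3365, 2718 and 1972 CPM in B6 replicates 1 to 4, from 20041, 20113, 13467 and 8775 reads. In BTBR replicates 1 to 4 it had 2503, 2641, 1899 and 2383 CPM, from 12179, 5884, 7580 and 19806 reads. Every BTBR mouse lay below the B6 median of 3041 CPM, but B6 replicate 4 was lower than 3 of the BTBR mice. The means were 2975 ± 813 CPM in B6 mice, against 2357 ± 323 CPM in BTBR mice (SD, n = 4 each). On the log2 scale BTBR minus B6 was −0.34 (standard error 0.22, 95% interval −0.83 to 0.15, adjusted p = 0.642 in the edgeR test). Expressed as a ratio, BTBR over B6 was 0.792, with limits of 0.564 and 1.11. Permuting the strain labels exactly, in all 70 ways and two-sided, gave p = 0.2, where 0.0286 is the smallest value possible.

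The spread in B6 mice was wider than in BTBR mice for this product. Its highest library was 1.95 times its lowest in B6 and 1.39 times in BTBR. Without B6 replicate 4, the lowest B6 library, the log2 fold change was −0.53 with an interval from −0.996 to −0.056 (unadjusted p = 0.0311, adjusted p = 0.505 in the same edgeR test), a removal that raises the B6 mean by construction. In the other direction it was −0.24 without B6 replicate 2, −0.25 without BTBR replicate 3 and −0.26 without B6 replicate 1. This fit and its neighbors are in the plot of fold changes under each alternative.

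miR-338-3p, the main strand of Mir338, was at rank 109 by mean level. B6 replicates 1 to 4 had 375, 584, 361 and 236 CPM. BTBR replicates 1 to 4 had 364, 169, 336 and 313 CPM. B6 replicate 2 was the highest and BTBR replicate 2 the lowest, and the other 6 mice ran together between 236 and 375 CPM. BTBR replicate 2 was also the shallowest library and its value rested on 376 reads, a counting error of 5.16%. The means were 389 ± 144 CPM in B6 mice, against 296 ± 87.1 CPM in BTBR mice (SD, n = 4 each). The log2 fold change was −0.39 (standard error 0.31, 95% interval −1.07 to 0.28, adjusted p = 0.690 in the same edgeR test), and the exact permutation test gave p = 0.343. A single library moved the estimate by more than 1.5 times: it was −0.11 without B6 replicate 2, −0.22 without BTBR replicate 2 and −0.60 without B6 replicate 4.

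miR-219a-5p, the strand with the GAUUGUC seed, was the least abundant, at rank 209. It had 34.9, 62.7, 30.3 and 30.3 CPM in B6 replicates 1 to 4, and 54.7, 31.4, 54.4 and 39.0 CPM in BTBR replicates 1 to 4. Its reads numbered from 70 in BTBR replicate 2 to 375 in B6 replicate 2, so that counting alone gives an error of 5.16% to 12%. B6 replicate 2 was above every other mouse, and the other 3 B6 mice lay within 30.3 to 34.9 CPM, among or below the BTBR mice. The means were 39.6 ± 15.6 CPM in B6 mice, against 44.9 ± 11.6 CPM in BTBR mice (SD, n = 4 each). The log2 fold change was 0.18 (standard error 0.31, 95% interval −0.50 to 0.86, adjusted p = 0.865 in the same edgeR test), with p = 0.486 in the exact permutation test. Without B6 replicate 2 it was 0.52 with an interval from −0.11 to 1.15 (adjusted p = 0.435). Any of B6 replicates 1, 3 and 4 or BTBR replicates 1 and 3 left out brought it to between 0.04 and 0.08, and leaving out BTBR replicate 2 brought it to 0.29.

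**Figure D2:**
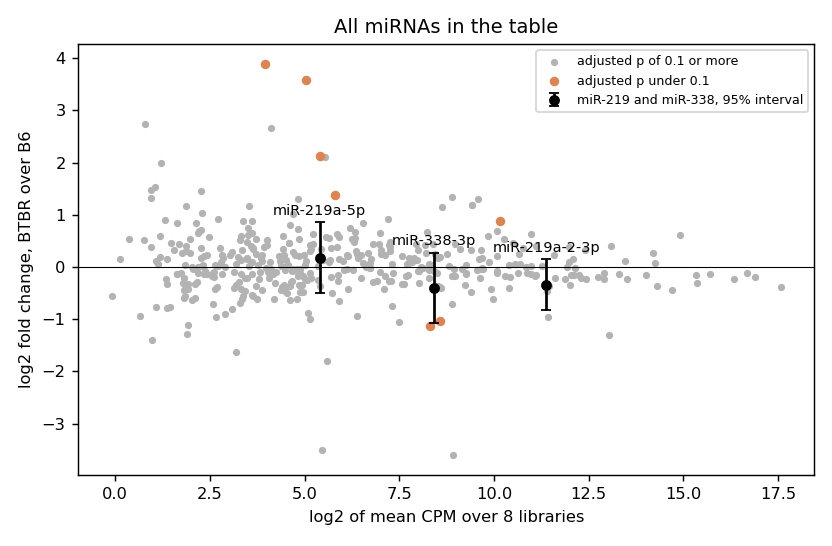
Log2 fold change of BTBR over B6 against the log2 mean level for the 422 miRNAs. Orange points are the 7 called miRNAs, gray points the rest, and black points the 3 members with 95% intervals, each of which crosses 0.

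In size of difference and in spread the members lay among the other miRNAs. Of the 422 miRNAs, 184 had a log2 fold change farther from 0 than miR-219a-2-3p, 152 farther than miR-338-3p and 272 farther than miR-219a-5p. The within-strain SD of the log2 level was 0.33 for miR-219a-2-3p, 0.52 for miR-338-3p and 0.44 for miR-219a-5p, beside a median of 0.44 over all miRNAs. The intervals of miR-219a-2-3p and miR-219a-5p in this fit stayed inside a doubling or halving, whereas the lower limit of miR-338-3p, a ratio of 0.478, did not. The upper limit of miR-219a-5p passed a doubling under 3 single changes, at 1.13 on the log2 scale with library size only, 1.08 with the replicate block and 1.15 without B6 replicate 2, as well as without B6 replicates 1 and 2 together. Differences within these limits could not be told from 0 with 4 mice per strain.

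**Figure D3:**
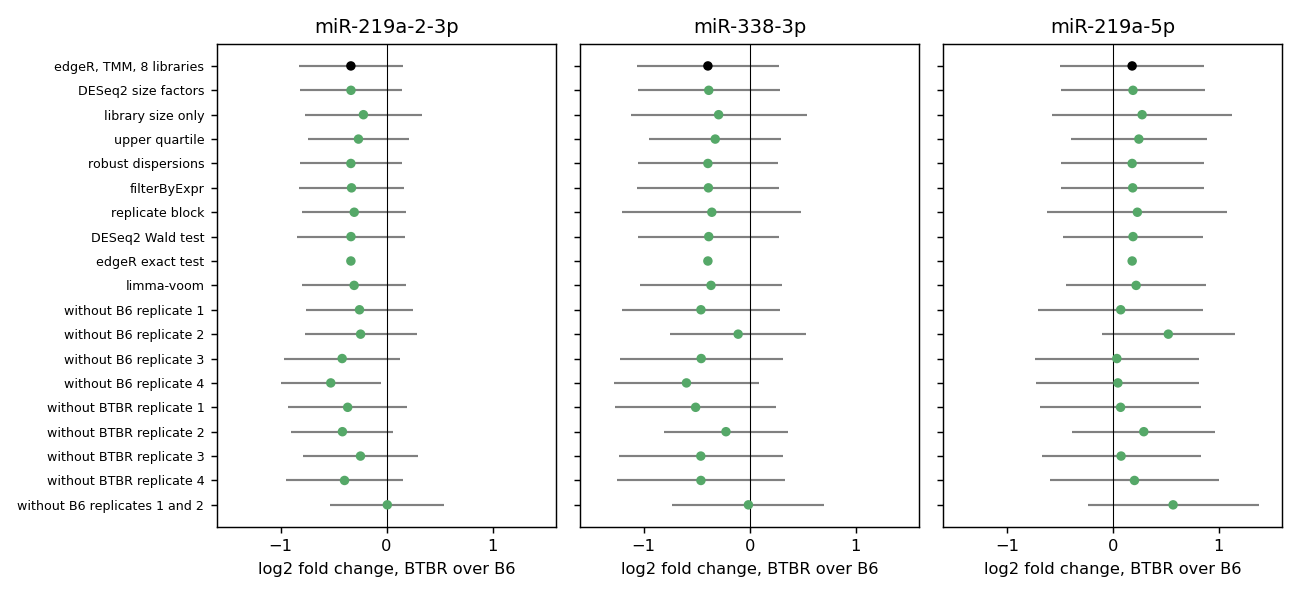
Log2 fold change of BTBR over B6 (points) with 95% intervals (lines) for each member under the edgeR fit with TMM (black) and each alternative (green). The exact test of edgeR gives no interval, and leaving out B6 replicates 1 and 2 together brings miR-219a-2-3p and miR-338-3p to about 0.

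Ratios of reads within a library need no scaling between libraries. They show the balance of the Mir219a-2 arms, miR-219a-2-3p per miR-219a-5p read. This ratio was 110, 53.6, 89.8 and 65.0 in B6 replicates 1 to 4, and 45.8, 84.1, 34.9 and 61.1 in BTBR replicates 1 to 4. The 3p arm thus exceeded the 5p product in every library, although the latter may also hold reads from Mir219a-1. The range was 3.15-fold over the 8 mice and the strains overlapped. The difference of BTBR minus B6 was −0.52 in mean log2 ratio (two-sided exact permutation test, p = 0.2, and 0.3 after Benjamini-Hochberg adjustment over the 3 ratios tested). It was −0.34 without B6 replicate 1 and −0.31 without BTBR replicate 3.

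miR-338-3p per miR-219a-5p read was 10.7, 9.30, 11.9 and 7.78 in B6 replicates 1 to 4, and 6.66, 5.37, 6.18 and 8.04 in BTBR replicates 1 to 4. BTBR replicate 4 was above B6 replicate 4, and apart from this crossing the BTBR mice were the lower. The mean log2 ratio was 3.29 ± 0.27 in B6 and 2.70 ± 0.24 in BTBR mice (SD, n = 4 each), a difference of −0.59 (exact permutation test, p = 0.0571, adjusted p = 0.171). It did not pass 0.05, with or without adjustment. The smallest p possible was 0.0286, so 1 ratio alone could not pass after adjustment over the 3. miR-338-3p per miR-219a-2-3p read ranged from 0.0974 to 0.173 in B6 and from 0.0639 to 0.177 in BTBR mice. BTBR replicate 2 gave the lowest value, and the mean log2 difference was −0.08 (exact permutation test, p = 0.886, adjusted p = 0.886). Its direction turned with a single mouse left out, to 0.07 without B6 replicate 2 and 0.23 without BTBR replicate 2.

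**Figure D4:**
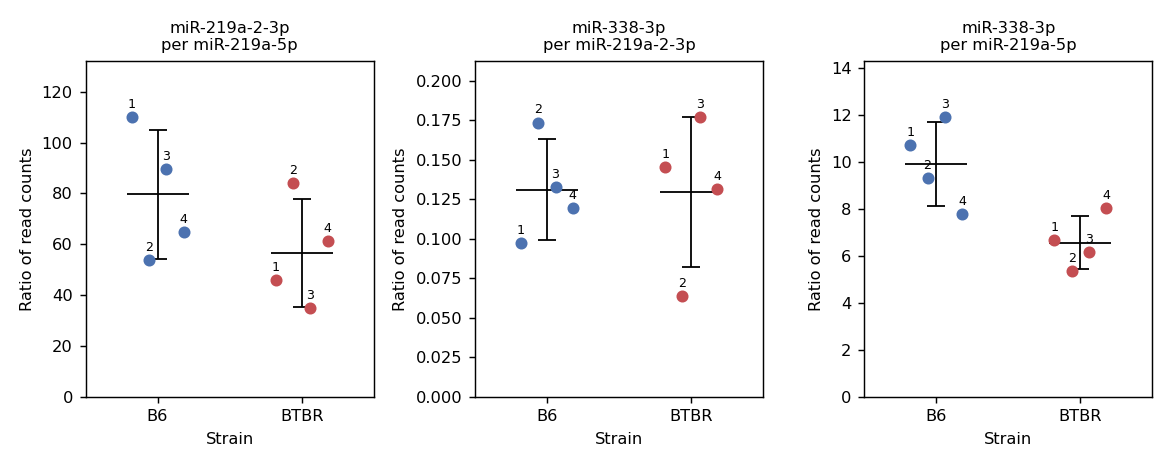
Ratio of the read counts of 2 members within each of the 4 B6 and 4 BTBR libraries, numbered by replicate, with the mean ± SD. miR-338-3p per miR-219a-5p read has 1 crossing between the strains, at replicate 4, and the other ratios overlap widely.

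The members did not all vary together from mouse to mouse. Over the 8 libraries, the log2 levels of miR-219a-2-3p and miR-219a-5p, which Mir219a-2 both yields, had a Pearson r of 0.035 (exact permutation test, p = 0.931) and a Spearman rho of 0.00 (p = 1). miR-219a-5p and miR-338-3p had r = 0.672 (p = 0.0641, adjusted over the 3 pairs 0.192) and rho = 0.548 (p = 0.171, adjusted 0.256), from exact permutation tests. Without B6 replicate 2 and BTBR replicate 1, the libraries farthest from the median of miR-219a-5p, r was 0.373. With a single mouse left out, r for this pair ran from 0.466 without B6 replicate 2 to 0.789 without B6 replicate 3 (exact permutation p = 0.0194, adjusted 0.0583), and it was 0.682 without BTBR replicate 1. Scaling by library size only gave r = 0.784 (exact permutation p = 0.0118, adjusted 0.0353). miR-219a-2-3p and miR-338-3p had r = 0.454 (exact permutation p = 0.259, adjusted 0.388) and rho = 0.619 (p = 0.115, adjusted 0.256), and r was 0.622 without B6 replicate 1 and BTBR replicate 3. With a single mouse left out, r for this pair ran from 0.249 without B6 replicate 2 to 0.689 without BTBR replicate 2. For miR-219a-2-3p and miR-219a-5p, r was −0.385 without B6 replicate 2 and BTBR replicate 1. With levels centered on each strain's mean, r was 0.872 for miR-219a-5p and miR-338-3p, 0.335 for miR-219a-2-3p and miR-338-3p and 0.185 for the Mir219a-2 products. Pairs among the 318 miRNAs with a mean of at least 10 CPM had a median r of −0.007 over the 8 libraries. Of these pairs, 7.97% lay above the r of miR-219a-5p and miR-338-3p. For miR-219a-2-3p and miR-338-3p the share was 18.9%, and for the Mir219a-2 products 47.0%.

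The miRNAs with patterns closest to each member were taken from the 318 with a mean of at least 10 CPM, by Pearson r over the 8 libraries as a description. Closest to miR-219a-2-3p were miR-34c-3p (r = 0.918), miR-1298-5p (0.827), miR-34b-5p (0.807), miR-34c-5p (0.803) and miR-204-5p (0.798). Of these 5, all but miR-34c-3p, the other arm of the miR-34c hairpin, were on the list of choroid plexus miRNAs. The choroid plexus is the epithelium that secretes cerebrospinal fluid and lies against the hippocampus. miR-34b-5p and miR-34c-5p also belong to a family of ciliated cells, so the list does not mark the choroid plexus alone. miR-338-3p stood at place 30 in the same order and miR-219a-5p at 150. In the order for miR-338-3p, miR-219a-5p stood at 29 and miR-219a-2-3p at 84. In that for miR-219a-5p, miR-338-3p stood at 17 and miR-219a-2-3p at 168. Closest to miR-338-3p were miR-872-3p (r = 0.889), miR-140-3p (0.881), miR-487b-3p (0.855), miR-126a-3p (0.851) and miR-130b-5p (0.851). miR-126a-3p is an endothelial miRNA. Like miR-338-3p, all 5 were lowest in BTBR replicate 2, the shallowest library. The part of that 1 library in their likeness was not tested. Closest to miR-219a-5p were miR-369-3p (r = 0.902), miR-434-3p (0.900), miR-133c (0.879), miR-7080-3p (0.872) and miR-330-5p (0.833). No miRNA came up for more than 1 member.

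Of 9 listed choroid plexus miRNAs 8 had a row. edgeR's quasi-likelihood test called 0 of them (1.66% of all miRNAs), with 4 at an unadjusted p under 0.05 (10.9% of all). DESeq2 called 2 (5.65% of all it tested), edgeR's exact test 3 (3.79%) and limma-voom 0 (1.42%). Their summed level was 39776, 16348, 6399 and 5203 CPM in B6 replicates 1 to 4, the same order as miR-219a-2-3p in those mice. In BTBR replicates 1 to 4 it was 5243, 9543, 7070 and 6240 CPM. There the orders differed: replicate 2 was highest in both, but replicate 1 was lowest in choroid plexus miRNA and second in miR-219a-2-3p, and replicate 3 was second in choroid plexus miRNA and lowest in miR-219a-2-3p. The fold changes of the list, 7 below 0 and 1 above, had a median of −1.12 on the log2 scale. miR-204-5p, its most abundant member, ranged from 4157 to 26966 CPM in B6 mice, against 2650 to 7739 CPM in BTBR mice.

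Without B6 replicates 1 and 2, the libraries with the most choroid plexus miRNA and left out after the data were seen, the log2 fold change of miR-219a-2-3p was 0.01 (95% interval −0.53 to 0.55) and that of miR-338-3p −0.01 (−0.73 to 0.70). That of miR-219a-5p was 0.57 (−0.24 to 1.37). These libraries were also the B6 mice highest in all 3 members, so that leaving them out lowers the B6 means by construction. The part of choroid plexus tissue in the levels of miR-219a-2-3p was not tested.

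**Figure D5:**
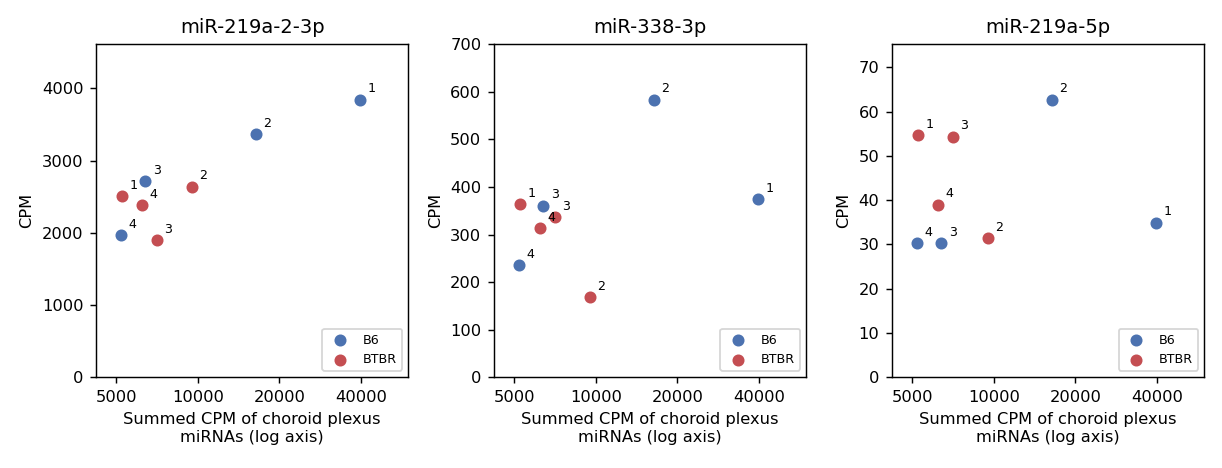
Level of each member in CPM against the summed CPM of 8 choroid plexus miRNAs (log axis) in the 4 B6 and 4 BTBR libraries, numbered by replicate. miR-219a-2-3p is highest in B6 replicates 1 and 2, which hold the most choroid plexus miRNA, while miR-338-3p and miR-219a-5p are highest in B6 replicate 2.

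Other miRNAs with reported roles in the oligodendrocyte lineage were listed too. Of 10 listed, 9 had a row, and 0 were called by edgeR's quasi-likelihood test, its exact test, DESeq2 or limma-voom, which called 1.66%, 3.79%, 5.65% and 1.42% of all miRNAs they tested, so that 0 of 9 is near the background. At an unadjusted p under 0.05, which 10.9% of all miRNAs reached, there was 1 of the 9, miR-212-3p (log2 fold change 0.65, adjusted p = 0.345 in the edgeR test). It shares a cluster with miR-132-3p (log2 fold change 0.39), which is on the neuronal list below, so it does not mark the oligodendrocyte lineage alone. Of the 9, 5 had a log2 fold change above 0 and 4 below, with a median of 0.03. miR-7a-5p, the most abundant, averaged 4679 ± 969 CPM in B6 mice, beside 4225 ± 894 CPM in BTBR mice (SD, n = 4 each). miR-138-5p, which is enriched in differentiating oligodendrocytes, averaged 1229 ± 401 and 801 ± 431 CPM, and its log2 fold change was −0.62 ± 0.35 (SE). miR-17-5p, of a cluster that favors precursor proliferation, was the 1 of the 9 whose strains did not overlap, against 6.64% of all miRNAs. It ran from 43.2 to 52.7 CPM in B6 mice, against 30.2 to 40.4 CPM in BTBR mice (log2 fold change −0.37, adjusted p = 0.601 in the edgeR test), and it is named because of these values, as miR-212-3p is.

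Markers of other cell types gave a mixed picture beside the members. All 8 neuronal miRNAs had a row and 0 were called by any of the 4 tests named above, nor did any have an unadjusted p under 0.05, with log2 fold changes above 0 for all 8 and a median of 0.29. miR-129-5p was the 1 of the 8 whose strains did not overlap (6.64% of all miRNAs), at 1166 to 1687 CPM in B6 mice, against 1703 to 2207 CPM in BTBR mice (log2 fold change 0.36, adjusted p = 0.521 in the edgeR test), and it is named for that. miR-128-3p, the most abundant of the list, averaged 17166 ± 1754 CPM in B6 mice, beside 20564 ± 5317 CPM in BTBR mice. Both endothelial miRNAs lay below 0 (median −0.15), the 2 mural ones on either side of 0, and the 4 microglia and leukocyte ones above 0 (median 0.14), with 0 called by any of these tests and 0 at an unadjusted p under 0.05. miR-146a-5p is on the last list and on that of the oligodendrocyte lineage. Of 4 red blood cell miRNAs 1 was called (1.66% of all miRNAs, and 1.18% as higher in BTBR), miR-451a, which was higher in BTBR mice (log2 fold change 1.38, adjusted p = 0.0339 in the edgeR test), and the list median was 1.25. At an unadjusted p under 0.05 there were 3 of the 4 (10.9% of all miRNAs), and DESeq2 called 3 (5.65%), edgeR's exact test 2 (3.79%) and limma-voom 1 (1.42%). Their summed level ran from 303 to 853 CPM in B6 mice, against 531 to 1371 CPM in BTBR mice. The part of differing cell makeup in the members' values was not tested.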

How the data were processed

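Small RNA of the hippocampus of 4 B6 and 4 BTBR mice was sequenced from Illumina TruSeq libraries, 1 per mouse. After adapter removal, the authors aligned reads to GRCm38 by sRNAbench, which runs Bowtie, and counted those inside miRBase miRNA coordinates. The deposited table holds these raw counts, not normalized. FastQC 0.11.2 is named in the submitters' processing notes. No miRNA of the table had a count under 1 in any library, and no row was removed. The counts carry no molecular identifiers, so the counting errors given cover sampling of reads only.

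Counts were normalized by TMM and tested with edgeR 4.0.16 (quasi-likelihood, no covariates, R 4.3.3), with Benjamini-Hochberg adjustment over 422 miRNAs and a threshold of 0.1. limma 3.58.1 and DESeq2 1.42.0 served as alternatives. Standard errors were derived from the fold change and its F statistic, and 95% intervals from the total degrees of freedom. Exact permutation tests used log2(CPM + 0.5) or log2 ratios of counts, two-sided. The steps were tested on simulated counts. No 2 libraries of a strain agreed within sampling noise. The members and lists were chosen with earlier results of these data known. Named miRNAs are the members, the 5 most like each, and, for lists described with examples, up to 4 of the most abundant miRNAs and any called. miR-17-5p, miR-212-3p and miR-129-5p were named after their values were seen, as were the related and unlisted neuronal miRNAs. Mature sequences came from RefSeq (GRCm38.p6), positions and 3′UTRs from GENCODE M21 (GRCm38). 3′UTRs of about the same length are those from 0.8 to 1.25 times as long. Alternatives were other normalizations, tests, a filter on low counts, the replicate number as a block, and each mouse left out. RNA-seq and RT-qPCR were not analysed here.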

Additional observations from a re-analysis of the deposited data

Results flagged for a closer look

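miR-219a-5p in B6 replicate 2 stood apart from the other B6 mice, at 62.7 CPM. Its gap to the next B6 mouse took 0.857 of the range of the strain, above the 95% critical value of Dixon's test for 4 samples. The test was made on 14 sets of 4 values (library totals, members and ratios, in each strain), and chance flags about 1 in 20. The same library was also highest in miR-338-3p, and second among all mice in miR-219a-2-3p.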

How the results depend on the processing

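Between strains, no member was called under any of its 18 alternatives. The log2 fold change of miR-219a-2-3p stayed below 0 in 17 and was 0.0072 without the 2 B6 libraries richest in choroid plexus miRNAs, an alternative chosen after seeing the data. Leaving out 1 mouse at a time gave −0.53 to −0.24 for miR-219a-2-3p, −0.60 to −0.11 for miR-338-3p and 0.04 to 0.52 for miR-219a-5p, with adjusted p from 0.435 to 0.989 in edgeR's quasi-likelihood test. Scaling by library size only moved the median of all miRNAs from 0.02 to 0.15, and the members to −0.22, −0.29 and 0.28 in the same order. The number of miRNAs called went from 7 to 4 with library size only, 16 with edgeR's exact test, 21 with DESeq2, 4 at a threshold of 0.05, 15 without the 2 B6 libraries named above, and 3 to 13 with 1 mouse left out. The replicate numbers did not pair the mice: deviations of same-numbered mice correlated between −0.151 and 0.052, and 1 of 4 B6 libraries matched its own number best. With the replicate number as a block, 3 miRNAs were called, and the members had log2 fold changes of −0.30 (miR-219a-2-3p), −0.36 (miR-338-3p) and 0.23 (miR-219a-5p), none called. Blocked ratios differed by −0.52, −0.08 and −0.59, where 0.125 is the smallest possible p. The difference in miR-338-3p per miR-219a-2-3p read turned to 0.07 without B6 replicate 2 and 0.23 without BTBR replicate 2 (leave-one-out range −0.26 to 0.23). Between miR-219a-5p and miR-219a-2-3p, r ranged from −0.305 (without B6 replicate 2) to 0.311 with 1 mouse left out, was −0.18 without B6 replicate 4, and was 0.428 with library size only. For miR-219a-5p and miR-338-3p, scaling by library size only gave r = 0.784 (exact permutation test, p = 0.0118, adjusted p = 0.0353), past the threshold of 0.05. The causes of these shifts were not tested. In the shallowest library miR-219a-5p rests on 70 reads.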
